A study of Homo sapiens with 8 samples.

Results

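The genes described here are the nuclear genes whose symbols mark them as subunits or assembly factors of respiratory complex I. They were taken from the deposited table by symbol, as rows named NDUFA, NDUFB, NDUFC, NDUFS, NDUFV, NDUFAB or NDUFAF followed by a number. The rule found 43 of 57773 rows, 36 of them subunits and 7 of them assembly factors (NDUFAF1 to NDUFAF7), and it used no measured value. NDUFA7 and NDUFB8 stood in the table as split rows and fell outside the rule.

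Complex I (NADH:ubiquinone oxidoreductase) is the entry enzyme of the mitochondrial respiratory chain. Its matrix arm takes electrons from NADH through a flavin and a chain of iron-sulfur clusters to ubiquinone, and its membrane arm pumps protons across the inner membrane. A core of nuclear and mitochondrially encoded subunits carries out the reaction, accessory subunits surround it, and assembly factors help to build it without staying in the finished enzyme. Metformin and phenformin are biguanides, and both are known as inhibitors of complex I.

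The cells were C4-2, a prostate cancer line that descends from LNCaP and grows without androgen, kept in T medium with serum. The 8 mRNA libraries came from cells given 5 mM metformin (3 libraries), 1 mM phenformin (2 libraries) or PBS vehicle (3 libraries). The treatment time in the labels is 24 h, in a protocol that names metformin and PBS only, so the time for phenformin was taken from the same field. Nothing in the labels says whether replicates were separate cultures, so the p-values reflect the spread among the libraries alone, and this spread may be technical.

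Levels were deposited as RPKM (a read count per exon length and library size), so a level depends on the exon length used for its gene. The lengths implied by the RPKM values differed widely, with 383 bases for NDUFA1 and 12268 bases for NDUFS1. Levels set side by side between genes are therefore approximate. Library totals recovered from the RPKM steps were 14169196 to 15898491 reads with metformin, 14611068 to 15876543 with phenformin and 13837455 to 44774670 with PBS. PBS replicate 1 was the deep library, at 2.93 times the median of the others. The members held 89 reads (NDUFAF7) to 12882 reads (NDUFB4) in a library, and 41 of the 43 had at least 100 reads in every library. All 7 prostate markers checked, among them KLK3 and KLK2, were at 1 RPKM or more in every library. Of 15 markers of other cell types found in the table, COL1A1 and VIM reached that level in every library, and PTPRC and CD3E were listed at 0 throughout. Vimentin was at 7.99 to 9.51 RPKM with metformin, 4.93 to 5.05 RPKM with phenformin and 3.67 to 4.24 RPKM with PBS, and its part in the results was not tested.

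In PBS the levels of the subunits spanned 89.03-fold between the highest and the lowest group mean, with 4 subunits at 100 RPKM or more, 19 at 20 to 100 RPKM and 13 under 20 RPKM. NDUFS5, an accessory subunit of the membrane arm, led with 221, 215 and 217 RPKM, followed by NDUFB4 with 152, 148 and 148 RPKM. NDUFB10 (119, 115 and 112 RPKM) and NDUFA1 (113, 110 and 110 RPKM) came next, and these neighbours overlapped. NDUFA13, also known as GRIM-19, was lowest at 2.95, 2.59 and 1.80 RPKM. The assembly factors were lower as a group, from 2.88 RPKM (NDUFAF5 and NDUFAF6) to 31.6 RPKM (NDUFAF3) in the PBS means. These rankings rest on the exon length of each row, such as 548 bases for NDUFS5 and 3350 bases for NDUFA13. The part of length in them was not tested. Summed RPKM in PBS was 1460 ± 39.5 over the 36 subunits and 88.8 ± 0.970 over the 7 assembly factors (SD, n = 3).

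The first comparison asked how metformin changed these mRNAs. After metformin 31 members fell, 2 rose (NDUFS4 and NDUFV2) and 10 did not pass the test. The median log2 change over the 36 subunits was -0.36 as deposited, and it stayed negative but smaller under 3 other scalings (-0.17 after median-centring, -0.10 on the TPM scale and -0.08 with limma-voom). The test was limma on log2(RPKM + 0.1), its p-values were adjusted by Benjamini-Hochberg across the 11730 genes tested with a limit of 0.05, and this scale understates the changes of low genes. All 43 members passed the filter on low values.

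These counts need the background of the whole table, where 82.9% of genes tested were called, 28.2% as higher and 54.8% as lower. Among the members 72.1% were lower and 4.65% were higher. All metformin libraries lay below all PBS libraries for 31 members and above them for 3, while over all genes tested 55.5% lay below and 29.0% above. The subunits as a group lay -0.06 from the median log2 change of all genes, which was -0.30. Scaling bears directly on this: the counts became 25 lower and 9 higher after median-centring, 20 and 11 on the TPM scale and 19 and 12 with limma-voom on the recovered reads. With limma-voom 44.2% of the members were lower and 27.9% higher, against 42.8% and 40.3% of all genes. Of the 33 calls, 21 kept their direction and side of the limit under all 3 scalings, 6 were lost in the same direction and 6 turned direction in 1 or more of these scalings. NDUFS3, NDUFA12, NDUFA5, NDUFA9, NDUFB9, NDUFAF4 and NDUFAF5, not called as deposited, were called higher under all 3 (0.16 to 0.43), and of these NDUFA9 and NDUFB9 were negative as deposited. Relative to the deposited scale the log2 changes of the members with metformin were raised by 0.19 after median-centring, by 0.24 to 0.27 on the TPM scale and by 0.17 to 0.29 with limma-voom.

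The second comparison set phenformin against the same PBS libraries, in a fit that included all 8 libraries. After phenformin 25 members rose, 6 fell and 12 did not pass the test, with a median log2 change of 0.26 over the 36 subunits. The 6 that fell were NDUFS1, NDUFV3, NDUFC2, NDUFB9, NDUFAF1 and NDUFAF6. Among the members 58.1% were higher and 14.0% lower, against 31.2% and 45.4% of the 12172 genes tested, of which 76.5% were called.

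The subunits lay 0.42 above the median log2 change of all genes, which was -0.15 with phenformin. Both phenformin libraries lay above all PBS libraries for 27 members and below them for 9, while over all genes tested 35.2% lay above and 50.7% below. Other scalings left the direction of the group in place, with 28 higher and 6 lower after median-centring, 35 and 4 on the TPM scale and 32 and 6 with limma-voom. Over all genes tested the share called higher also went up with these scalings, at 35.6% after median-centring, 43.5% on the TPM scale and 40.4% with limma-voom, and the shares called lower were 41.2%, 32.9% and 38.7%. Of the 31 calls 29 were kept under all 3, and NDUFAF6 and NDUFB9 lost theirs on the TPM scale. The doses of the drugs differ, so values with 5 mM metformin and 1 mM phenformin are given side by side and their difference was not tested. Because both comparisons share the PBS libraries, they are not independent of each other.

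**Figure D1:**
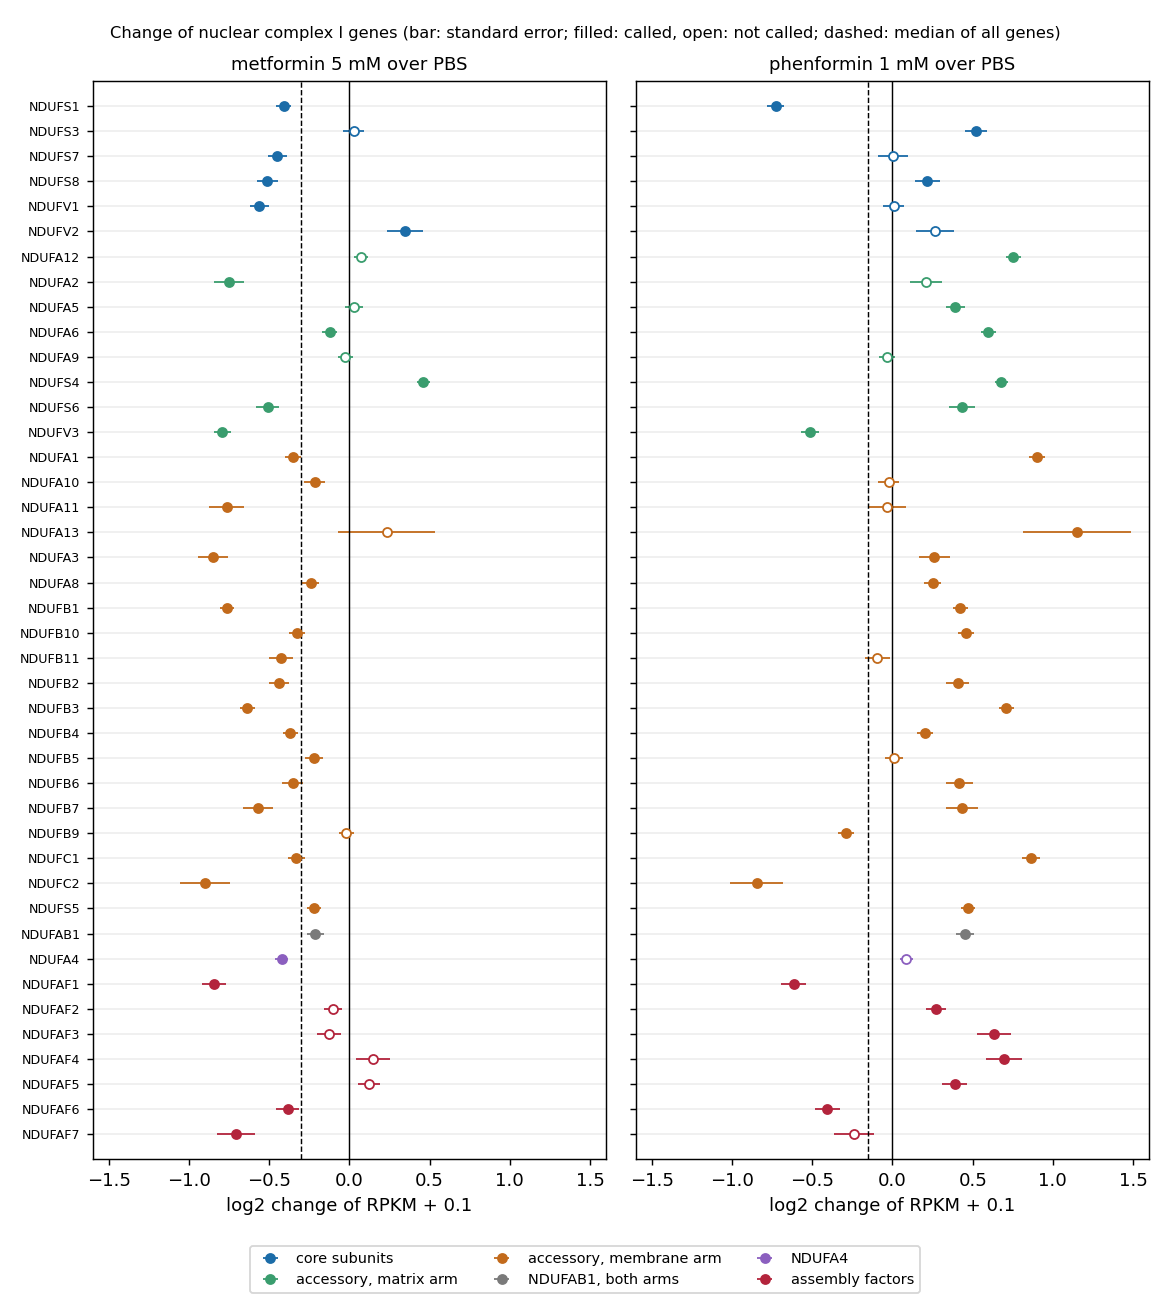
Log2 change of RPKM + 0.1 against PBS for 42 of the 43 genes (rows), with metformin on the left and phenformin on the right. Points are fitted changes with their standard error, filled where called and open where not, and the dashed line is the median of all genes tested (-0.30 with metformin, -0.15 with phenformin). Most points lie left of 0 with metformin and right of 0 with phenformin (25 higher, 6 lower).

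The summed levels show the same data on a linear scale. Summed over the 36 subunits, RPKM was 1205, 1133 and 1220 in the metformin libraries, 1886 and 1934 in the phenformin libraries, and 1503, 1450 and 1426 in the PBS libraries. The 3 groups did not overlap, with metformin lowest and phenformin highest. The 7 assembly factors summed to 81.0, 73.3 and 83.4 RPKM with metformin, 109.8 and 120.1 RPKM with phenformin and 89.9, 88.3 and 88.1 RPKM with PBS, in the same order and again without overlap. As a percentage of the summed RPKM of all genes (the TPM scale), the assembly factors took 0.0425, 0.0403 and 0.0433 with metformin, 0.0592 and 0.0628 with phenformin and 0.0392, 0.0387 and 0.0397 with PBS, so on that scale metformin lay above PBS. The subunits kept the order on that scale, at 0.632, 0.623 and 0.634 with metformin, 1.017 and 1.012 with phenformin and 0.656, 0.636 and 0.642 with PBS. A few abundant genes weigh most in such sums. On the mean log2 level the subunits stood above the assembly factors by 1.57 ± 0.0317 with metformin (SD, n = 3), by 1.77 ± 0.00386 with phenformin (n = 2) and by 1.63 ± 0.0544 with PBS (n = 3), and the metformin and PBS libraries overlapped on this measure.

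The mitochondrially encoded subunits of complex I moved apart from the nuclear ones. All 7 were called lower with metformin (median log2 change -2.03) and with phenformin (median log2 change -2.86). They summed to 7362, 7145 and 7864 RPKM with metformin, 3238 and 3229 RPKM with phenformin and 17891, 18719 and 16630 RPKM with PBS. Mitochondrially encoded genes together took 12.7% to 13.6% of the summed RPKM with metformin, 4.60% to 4.76% with phenformin and 23.3% to 24.8% with PBS. These percentages are of summed RPKM and not of mapped reads. RPKM is counted per mapped read of the library, so the number of mitochondrial reads bears on the level of every nuclear gene. The part of the mitochondrial reads in the changes of the members was not tested. Fewer mitochondrial transcripts per cell and more of the other RNA cannot be told apart in bulk libraries.

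**Figure D2:**
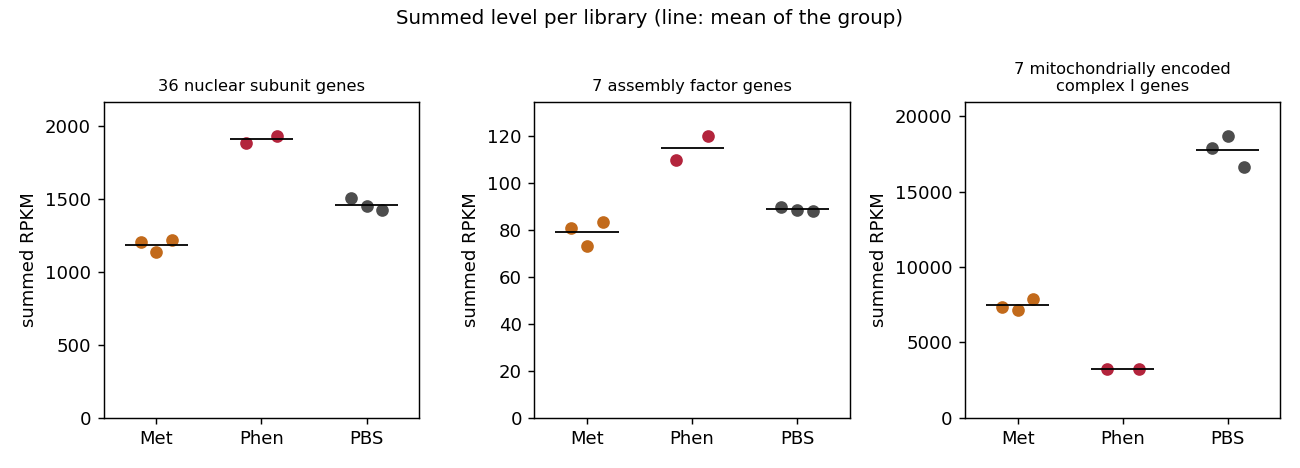
Summed RPKM in each library for the 36 nuclear subunit genes, the 7 assembly factor genes and the 7 mitochondrially encoded complex I genes. Points are libraries and lines are group means. The nuclear sums are lowest with metformin (1133 to 1220 over the subunits) and highest with phenformin (1886 and 1934), although the assembly factor sum with metformin lies above PBS on the TPM scale (0.0403% to 0.0433% against 0.0387% to 0.0397%), whereas the mitochondrial sum is 3238 and 3229 with phenformin and 16630 to 18719 with PBS.

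The nuclear core subunits carry the electron path of the matrix arm. With metformin NDUFS1, NDUFV1, NDUFS7 and NDUFS8 fell and NDUFV2 rose. With phenformin NDUFS3 and NDUFS8 rose and NDUFS1 fell. NDUFS1, the largest subunit, holds several iron-sulfur clusters of the NADH-oxidising module. It was at 10.0, 10.2 and 10.2 RPKM with metformin, 8.25 and 7.98 RPKM with phenformin and 13.3, 13.1 and 14.2 RPKM with PBS. It fell with both drugs, by 0.41 ± 0.0487 with metformin (log2 ± SE, adjusted p = 8.32e-05) and by 0.73 ± 0.0507 with phenformin (adjusted p = 2.5e-06), with no overlap between any of the groups. Exons of NDUFS1 overlap GCSHP3 on the same strand and EEF1B2 on the other, so its level is uncertain. Under the other scalings the falls of the core subunits with metformin stayed called but were smaller, at -0.22 to -0.13 for NDUFS1, -0.38 to -0.29 for NDUFV1, -0.26 to -0.19 for NDUFS7 and -0.32 to -0.24 for NDUFS8. With phenformin NDUFV1 was called higher on the TPM scale (0.27) and with limma-voom (0.17), and NDUFS7 on the TPM scale (0.27).

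NDUFV1 binds NADH and the flavin, and NDUFV2 holds an iron-sulfur cluster beside it. NDUFV1 was at 24.5, 22.7 and 24.2 RPKM with metformin, 34.8 and 36.02 RPKM with phenformin and 37.3, 35.9 and 32.7 RPKM with PBS. It fell by 0.56 ± 0.0596 on the log2 scale with metformin (adjusted p = 4.24e-05), and its phenformin and PBS libraries overlapped (log2 change 0.01 ± 0.0624, adjusted p = 0.932). NDUFV2 was at 28.5, 30.1 and 28.6 RPKM with metformin, 26.6 and 28.2 RPKM with phenformin and 27.6, 19.7 and 21.8 RPKM with PBS. PBS replicate 1, the deep library, was thus well above the other PBS libraries, and the phenformin libraries overlapped it. The change of NDUFV2 was 0.35 ± 0.111 with metformin (adjusted p = 0.019) and 0.26 ± 0.119 with phenformin (adjusted p = 0.071). Its call with metformin was lost without metformin replicate 2 (0.32), PBS replicate 2 (0.24) or PBS replicate 3 (0.31). With phenformin a call was gained without PBS replicate 1 (0.40). It was also gained after median-centring (0.36), on the TPM scale (0.53) and with limma-voom (0.40).

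NDUFS3, NDUFS7 and NDUFS8 belong to the ubiquinone-reducing module. NDUFS3 was at 26.3, 23.8 and 28.7 RPKM with metformin, 36.9 and 36.9 RPKM with phenformin and 26.01, 25.6 and 25.5 RPKM with PBS. It overlapped PBS with metformin (log2 change 0.03 ± 0.0674, adjusted p = 0.725) and rose by 0.52 ± 0.0698 with phenformin (adjusted p = 1.39e-04). Under all 3 other scalings it was called higher with metformin too (0.21 to 0.30). Exons of NDUFS3 share sequence positions with PTPMT1 on the same strand, so reads may have been split between them.

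NDUFS7 and NDUFS8 hold the iron-sulfur clusters nearest the quinone. NDUFS7 was at 5.15, 5.00 and 5.23 RPKM with metformin, 6.31 and 7.88 RPKM with phenformin and 7.52, 6.86 and 6.77 RPKM with PBS. It fell with metformin (log2 change -0.45 ± 0.0606, adjusted p = 1.79e-04), while the phenformin libraries lay on both sides of PBS (0.00 ± 0.0935, adjusted p = 0.986). NDUFS8 was at 10.8, 10.4 and 11.5 RPKM with metformin, 17.2 and 19.2 RPKM with phenformin and 16.6, 16.0 and 14.4 RPKM with PBS. Its log2 change was -0.51 ± 0.0671 with metformin (adjusted p = 1.51e-04) and 0.22 ± 0.0772 with phenformin (adjusted p = 0.0289). That rise was small, and the call was lost without PBS replicate 3 (0.16) or phenformin replicate 2 (0.14), with no filter (0.22, adjusted p = 0.0522) and with the replicate number as a block (0.21, adjusted p = 0.0825).

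Accessory subunits of the matrix arm moved in both directions with metformin. Of the 8 members 4 fell and NDUFS4 rose with metformin, at a median log2 change of -0.07 that turned positive under all 3 other scalings (0.11 to 0.20, with 3 lower and 4 or 5 higher). With phenformin 5 rose and NDUFV3 fell (median 0.41). Among all genes tested 54.8% fell and 28.2% rose with metformin as deposited. Under the other scalings 42.8% to 46.2% of all genes were lower and 36.1% to 40.3% higher with metformin. With phenformin 31.2% of all genes rose and 45.4% fell as deposited. NDUFS4, mutated in Leigh syndrome, sits where the NADH-oxidising module joins the arm. Its level was 44.6, 45.5 and 42.8 RPKM with metformin, 51.6 and 51.6 RPKM with phenformin and 32.4, 31.9 and 32.3 RPKM with PBS. The groups were far apart, and NDUFS4 rose by 0.46 ± 0.0411 with metformin (adjusted p = 1.58e-05) and by 0.68 ± 0.0405 with phenformin (adjusted p = 1.01e-06), which are 1.38 and 1.603 times the PBS mean. No other gene overlapped its exons in the annotation used.

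NDUFV3 is a small accessory subunit of the NADH-oxidising module and went the other way. It was at 4.78, 4.49 and 4.67 RPKM with metformin, 5.56 and 5.76 RPKM with phenformin and 8.21, 8.29 and 7.85 RPKM with PBS. All treated libraries lay below PBS, with log2 changes of -0.79 ± 0.0542 (adjusted p = 3.53e-06) with metformin and -0.51 ± 0.0562 (adjusted p = 4.01e-05) with phenformin. NDUFA12 joins the matrix arm late, at the place held by its paralog NDUFAF2 during assembly. NDUFA12 was at 25.96, 24.1 and 25.5 RPKM with metformin, 40.6 and 40.2 RPKM with phenformin and 23.96, 23.5 and 24.2 RPKM with PBS. Its rise with phenformin was clear of all other libraries (0.75 ± 0.0444, adjusted p = 9.28e-07), whereas metformin overlapped PBS (0.07 ± 0.0445, adjusted p = 0.155). The value with metformin passed the limit without metformin replicate 2 (0.10) and under each of the 3 other scalings (0.26 to 0.35). The 5 other matrix-arm accessory subunits ranged from -0.75 (NDUFA2) to 0.03 (NDUFA5) with metformin and from -0.03 (NDUFA9) to 0.60 (NDUFA6) with phenformin.

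Of the 19 accessory subunits of the membrane arm 17 fell and none rose with metformin (median log2 change -0.35), and under the other scalings 8 to 13 were lower and 1 higher, with medians of -0.17 to -0.08. With phenformin 13 rose and 2 fell (median 0.41), and 13 to 16 rose under the other scalings. Among all genes tested 54.8% fell and 28.2% rose with metformin as deposited, and 42.8% to 46.2% fell under the other scalings. With phenformin 31.2% of all genes rose and 45.4% fell as deposited, and 35.6% to 43.5% rose under the other scalings. NDUFA1, a small single-pass protein of the membrane arm, was at 86.5, 82.1 and 91.8 RPKM with metformin, 208 and 207 RPKM with phenformin and 113, 110 and 110 RPKM with PBS. The 3 groups stood apart, at -0.35 ± 0.0504 with metformin (adjusted p = 2.49e-04) and 0.90 ± 0.0513 with phenformin (adjusted p = 7.68e-07), and the phenformin mean was 1.87 times the PBS mean. NDUFC1 was at 20.8, 18.7 and 20.7 RPKM with metformin, 45.3 and 46.9 RPKM with phenformin and 25.8, 25.0 and 25.1 RPKM with PBS. Its pattern was like that of NDUFA1, with log2 changes of -0.33 ± 0.0533 with metformin (adjusted p = 5.06e-04) and 0.87 ± 0.055 with phenformin (adjusted p = 1.47e-06). The falls of NDUFA1 and NDUFC1 with metformin kept their direction but lost their calls on the TPM scale (-0.09 and -0.07) and with limma-voom (-0.08 and -0.06).

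NDUFA3 and NDUFC2, both of the membrane arm, had the lowest log2 changes among the subunits with metformin. NDUFA3 was at 7.52, 6.18 and 7.04 RPKM with metformin, 15.2 and 14.8 RPKM with phenformin and 13.3, 13.1 and 11.2 RPKM with PBS. It fell with metformin to 0.551 times the PBS mean (log2 change -0.85 ± 0.0931, adjusted p = 5.12e-05). With phenformin it was slightly above PBS (0.26 ± 0.0974, adjusted p = 0.0362), a call lost without PBS replicate 3 (0.18), phenformin replicate 1 (0.25) or phenformin replicate 2 (0.28), with no filter (adjusted p = 0.0682), with eBayes without trend (adjusted p = 0.0562) and with the replicate block (0.23, adjusted p = 0.0743). NDUFC2 was at 4.22, 2.87 and 4.12 RPKM with metformin, 3.78 and 3.90 RPKM with phenformin and 7.96, 6.89 and 6.18 RPKM with PBS. All treated libraries lay below PBS, by -0.90 ± 0.155 with metformin (adjusted p = 7.63e-04) and -0.85 ± 0.165 with phenformin (adjusted p = 0.00142). NDUFC2 shares exons with the read-through gene NDUFC2-KCTD14, which was higher in level and was also called lower, with 8.90, 10.9 and 10.5 RPKM with metformin, 21.1 and 18.7 RPKM with phenformin and 37.8, 36.1 and 35.2 RPKM with PBS.

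NDUFA13 had the highest log2 change with phenformin and the widest error of all members. It was at 3.03, 1.76 and 4.23 RPKM with metformin, 4.63 and 6.42 RPKM with phenformin and 2.95, 2.59 and 1.80 RPKM with PBS. Metformin libraries spread across the PBS range (0.23 ± 0.302, adjusted p = 0.487), and without metformin replicate 3 the value was -0.05. The rise with phenformin, 1.15 ± 0.336 (adjusted p = 0.0122), was no longer called without phenformin replicate 2 (0.92). NDUFA13 shares exons with YJEFN3 on the same strand, so its level is uncertain. The other 14 membrane-arm accessory subunits ranged from -0.76 (NDUFA11) to -0.02 (NDUFB9) with metformin, where 13 fell, against 54.8% of all genes tested. With phenformin they ranged from -0.29 (NDUFB9) to 0.71 (NDUFB3), where 9 rose, against 31.2% of all genes tested.

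A pair of members sit apart from these groups. NDUFAB1, the mitochondrial acyl carrier protein, is found in both arms, and was lower with metformin (-0.21) and higher with phenformin (0.45). That fall of NDUFAB1 turned direction on the TPM scale (0.05) and with limma-voom (0.07). NDUFA4, now known as a subunit of complex IV, was lower with metformin (-0.42) and did not pass the test with phenformin (0.08), where it was called higher under all 3 other scalings (0.18 to 0.35). Without both genes the subunit medians stayed at -0.36 with metformin and 0.26 with phenformin.

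**Figure D3:**
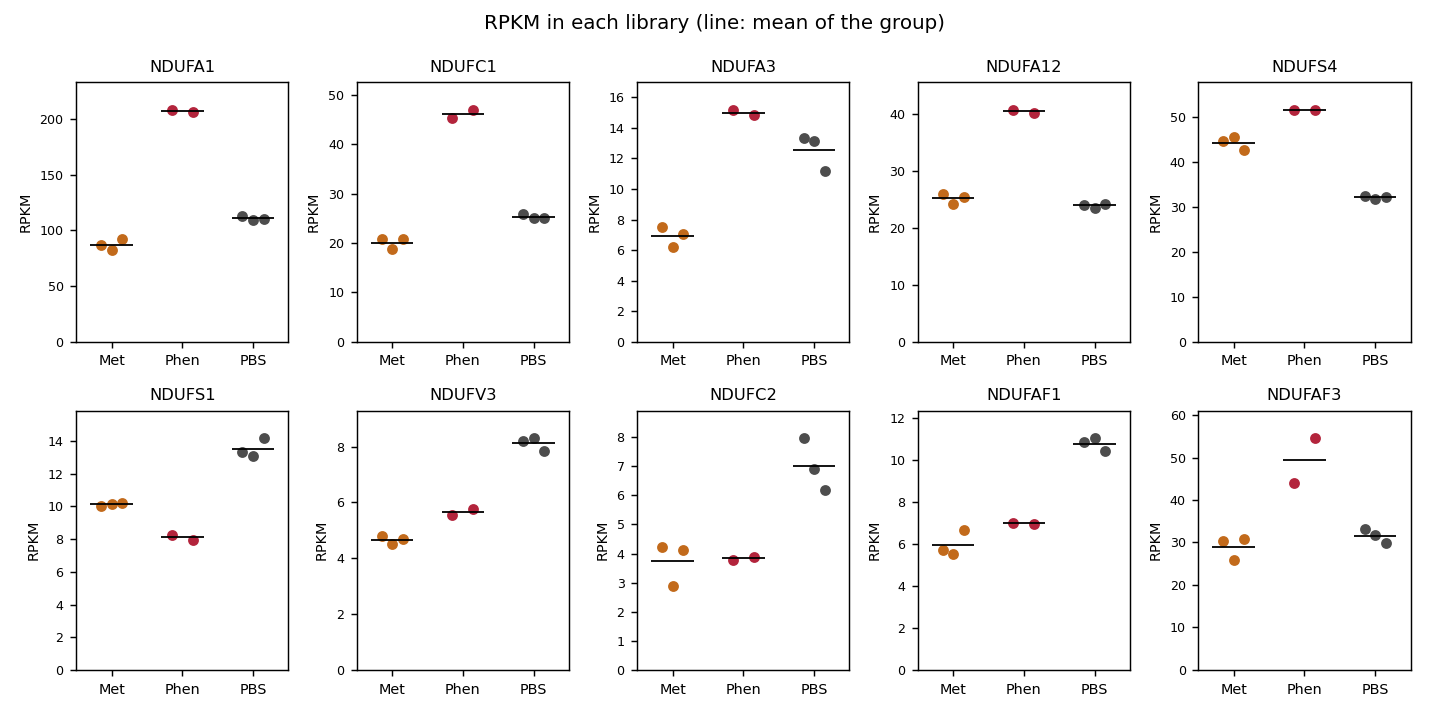
RPKM in each library for 10 of the genes given in full, with metformin, phenformin and PBS from left to right. Points are libraries and lines are group means, on linear axes that start at 0. NDUFA1 and NDUFC1 are lowest with metformin and highest with phenformin, NDUFS4 is above PBS with both drugs, and NDUFV3, NDUFC2 and NDUFAF1 are below PBS with both.

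The assembly factors were split between falls and rises. With metformin 3 of the 7 fell and none rose as deposited, where 54.8% of all genes tested fell. Under the other scalings some rose, with 3 lower and 2 higher after median-centring, 2 lower and 3 higher on the TPM scale and 2 lower and 4 higher with limma-voom. In the same order 46.2%, 42.8% and 42.8% of all genes tested were lower and 36.1%, 39.1% and 40.3% were higher. The median log2 change of -0.13 became positive under median-centring (0.06), on the TPM scale (0.14) and with limma-voom (0.15). With phenformin 4 rose and 2 fell, with a median of 0.27, where 31.2% of all genes tested rose and 45.4% fell. NDUFAF1 belongs to the mitochondrial complex I assembly complex, which builds part of the membrane arm. It was at 5.72, 5.53 and 6.68 RPKM with metformin, 7.02 and 6.97 RPKM with phenformin and 10.9, 11.05 and 10.4 RPKM with PBS. NDUFAF1 fell to 0.554 times the PBS mean with metformin (log2 change -0.85 ± 0.0766, adjusted p = 1.69e-05) and to 0.649 times with phenformin (-0.62 ± 0.0799, adjusted p = 1.14e-04), with no overlap with PBS.

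NDUFAF3 and NDUFAF4 work together early in the assembly of the matrix arm, and both rose with phenformin. NDUFAF3 was at 30.4, 25.8 and 30.9 RPKM with metformin, 44.1 and 54.5 RPKM with phenformin and 33.2, 31.8 and 29.9 RPKM with PBS. Its log2 change was 0.63 ± 0.105 with phenformin (adjusted p = 5.42e-04), and with metformin it was -0.13 ± 0.0773 (adjusted p = 0.158) with overlapping libraries. That value of NDUFAF3 turned positive under all 3 other scalings (0.06 to 0.15) and was called higher with limma-voom (0.15). NDUFAF4 was at 14.4, 12.4 and 12.6 RPKM with metformin, 18.5 and 19.9 RPKM with phenformin and 11.96, 10.2 and 13.5 RPKM with PBS. It rose by 0.69 ± 0.112 with phenformin (adjusted p = 4.61e-04). With metformin its libraries overlapped PBS (0.15 ± 0.105, adjusted p = 0.218), and a call was gained without PBS replicate 3 (0.24). It was also called higher with metformin under all 3 other scalings (0.34 to 0.43).

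NDUFAF2, the paralog of NDUFA12, attends the late steps at the NADH-oxidising module. It was at 23.5, 22.6 and 25.7 RPKM with metformin, 31.9 and 30.1 RPKM with phenformin and 25.0, 26.6 and 25.5 RPKM with PBS. It rose by 0.27 ± 0.0613 with phenformin (adjusted p = 0.00337). The value with metformin, -0.10 ± 0.0573 (adjusted p = 0.132), was called lower without metformin replicate 3 (-0.15), was positive under all 3 scalings (0.09 to 0.19) and was called higher on the TPM scale (0.16) and with limma-voom (0.19). NDUFAF5 hydroxylates an arginine of NDUFS7. It was at 3.02, 3.18 and 3.22 RPKM with metformin, 3.603 and 3.999 RPKM with phenformin and 2.94, 2.98 and 2.71 RPKM with PBS. Every treated library lay above every PBS library, but as deposited only the change with phenformin was called (0.39 ± 0.0784, adjusted p = 0.00169), against 0.12 ± 0.0709 with metformin (adjusted p = 0.142). Under all 3 other scalings the change of NDUFAF5 with metformin was also called higher (0.31 to 0.40).

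NDUFAF6 and NDUFAF7 were the lowest of the assembly factors in level after metformin. NDUFAF6, needed for an early step of assembly, was at 2.30, 2.11 and 2.13 RPKM with metformin, 2.14 and 2.15 RPKM with phenformin and 2.87, 2.81 and 2.95 RPKM with PBS. Treated libraries lay below PBS, by -0.39 ± 0.0732 with metformin (adjusted p = 0.00132) and -0.41 ± 0.0762 with phenformin (adjusted p = 0.00112). On the TPM scale both calls were lost (-0.13 with metformin, -0.15 with phenformin), and with limma-voom that with metformin was lost as well (-0.12). NDUFAF7, an arginine methyltransferase, was at 1.59, 1.69 and 2.15 RPKM with metformin, 2.55 and 2.47 RPKM with phenformin and 2.92, 2.87 and 3.18 RPKM with PBS, and it fell with metformin (-0.71 ± 0.118, adjusted p = 6.52e-04). With phenformin it was also below every PBS library (-0.24 ± 0.124, adjusted p = 0.108), and that value passed the limit once metformin replicate 3 was left out of the fit (-0.24).

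Assembly factors with other names were set beside these. Of 10 tested, 7 fell and 3 rose with metformin (median log2 change -0.65), and 4 fell and 4 rose with phenformin (median -0.13). Over all genes tested 54.8% fell and 28.2% rose with metformin, and 45.4% fell and 31.2% rose with phenformin. All values for this list are on the deposited scale. TIMMDC1 and COA1, which act with NDUFAF1, fell with both drugs (-1.08 and -1.11 with metformin, -1.10 and -0.86 with phenformin). ECSIT and TMEM126B, of the same assembly complex, rose with both (0.34 and 0.14 with metformin, 0.67 and 0.51 with phenformin). ACAD9, also on this list, fell with metformin (-0.31) and did not pass the test with phenformin (-0.19). C17orf89, the gene of NDUFAF8 and the partner of NDUFAF5, was lower with metformin (-0.67) and higher with phenformin (0.56).

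The length of the genes differed along with the change. Exon length is the length implied by the RPKM steps, and the subunits were split at 2000 and 4000 bases. With phenformin 14 of the 16 subunits under 2000 bases rose and none fell (median log2 change 0.45), 4 of 9 from 2000 to under 4000 bases rose and 2 fell (median 0.26), and 3 of 11 with 4000 bases or more rose and 2 fell (median 0.00). The medians of all genes tested in these classes were -0.13, -0.10 and -0.19. Whatever their length, 31.2% of all genes tested rose and 45.4% fell with phenformin. The share of all genes called within each length class was not worked out. With metformin the subunit medians by class, short to long, were -0.34, -0.41 and -0.44, and those of all genes were -0.58, -0.33 and -0.21. The part of length in the results was not tested.

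**Figure D4:**
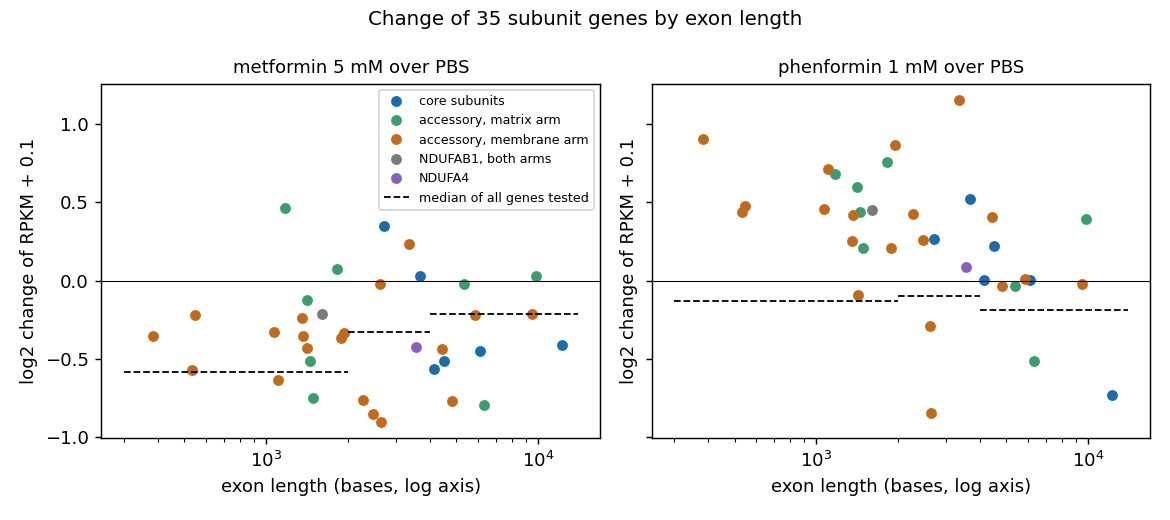
Log2 change of RPKM + 0.1 against exon length in bases (log axis) for 35 of the 36 subunit genes, with metformin on the left and phenformin on the right. Dashed lines are the medians of all genes tested under 2000, from 2000 to under 4000 and from 4000 bases. With phenformin the subunits under 2000 bases lie mostly above 0 (14 of 16 called higher, median 0.45), while those of 4000 bases or more centre on 0.00. Of all genes tested, whatever their length, 31.2% were called higher with phenformin.

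Promoter sequences are shown for 4 members that were called with phenformin in opposite directions, NDUFA1 and NDUFA12 (higher) and NDUFS1 and NDUFV3 (lower). They are the 250 bases before the RefSeq start on GRCh38.p14, a later build than that of the deposited table, read 5′ to 3′ along the gene's strand. Capitals mark each match to a motif searched. NDUFA1 lies at chrX:119871582-119871831 (+), NDUFA12 at chr12:95003698-95003947 (-), NDUFS1 at chr2:206159445-206159694 (-) and NDUFV3 at chr21:42893059-42893308 (+).
NDUFA1: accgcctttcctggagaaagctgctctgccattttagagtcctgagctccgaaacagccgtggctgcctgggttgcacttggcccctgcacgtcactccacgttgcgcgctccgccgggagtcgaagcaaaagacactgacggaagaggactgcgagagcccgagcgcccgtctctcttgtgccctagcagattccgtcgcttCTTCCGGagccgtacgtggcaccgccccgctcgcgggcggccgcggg
NDUFA12: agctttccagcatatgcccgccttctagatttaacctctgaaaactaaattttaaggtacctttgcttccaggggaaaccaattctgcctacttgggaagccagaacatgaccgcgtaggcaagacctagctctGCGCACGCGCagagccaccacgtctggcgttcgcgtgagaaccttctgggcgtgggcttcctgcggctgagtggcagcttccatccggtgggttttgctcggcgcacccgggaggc
NDUFS1: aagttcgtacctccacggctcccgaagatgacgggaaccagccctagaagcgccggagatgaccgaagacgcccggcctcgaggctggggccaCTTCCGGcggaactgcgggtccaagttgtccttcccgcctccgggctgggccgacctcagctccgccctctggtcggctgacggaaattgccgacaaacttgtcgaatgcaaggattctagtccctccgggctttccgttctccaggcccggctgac
NDUFV3: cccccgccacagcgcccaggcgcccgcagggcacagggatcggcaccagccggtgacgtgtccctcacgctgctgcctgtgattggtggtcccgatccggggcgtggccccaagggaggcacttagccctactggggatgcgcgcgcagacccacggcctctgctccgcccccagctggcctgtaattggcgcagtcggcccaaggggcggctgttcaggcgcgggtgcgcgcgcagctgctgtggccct
NDUFA1 and NDUFS1 each held CTTCCGG, the reverse complement of the ETS-type motif CCGGAAG, starting 47 and 157 bases before the start. NDUFA12 held GCGCACGCGC, which matches the NRF1 motif (GCGCN followed directly by TGCGC) on the other strand, starting 116 bases before the start, and NDUFV3 held none of the letters searched.

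Motifs were searched on both strands of these 250 bases in the 36 members that matched a RefSeq promoter entry, and a gene with several listed starts was counted if any of them held the motif. The NRF1 motif was found in 5 of 36 members and in 6.2% of all 27305 genes with an entry, CCGGAAG in 6 of 36 and in 10.2%, and the YY1 motif GCCATNTTG in 2 of 36 and in 1.7%. The YY1 match of NDUFS1 lay before a further listed start of that gene, not in the sequence shown. A match is a description of the letters and not a measured binding site. The regulators known to act through these motifs were measured as mRNA: NRF1 was higher with both drugs (1.23 with metformin, 0.40 with phenformin), as were YY1 (1.24 and 0.90) and GABPB1 (1.25 and 0.94). GABPA, the DNA-binding partner of GABPB1, was at -0.13 with metformin, which did not pass the test, and was lower with phenformin (-0.26). The regulators are given on the deposited scale only. Other scalings raised the log2 changes of the complex I members by 0.17 to 0.29 with metformin and 0.09 to 0.29 with phenformin. The direction of small changes such as those of GABPA is therefore uncertain.

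Other nuclear genes of mitochondrial energy metabolism were set beside the complex I genes as counts. Of 37 nuclear genes of complexes II to V, 31 fell and 1 rose with metformin (median log2 change -0.33), and 8 fell and 21 rose with phenformin (median 0.24). Of 73 mitochondrial ribosomal protein genes tested, 36 fell and 18 rose with metformin (median -0.20), and 8 fell and 44 rose with phenformin (median 0.36). Over all genes tested 54.8% fell and 28.2% rose with metformin, and 45.4% fell and 31.2% rose with phenformin. From the median of all genes, complexes II to V lay at -0.03 with metformin and 0.39 with phenformin. The ribosomal protein list lay at 0.10 and 0.52. All these values are on the deposited scale. The complex I subunits, with medians of -0.36 and 0.26, were close in value to complexes II to V, and no difference between these lists was tested.

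Overlapping genes limit some of these values. In GENCODE 29, 23 of the 43 members had exons that overlap another gene, 11 of them on the same strand and 18 on the other. The sources used here do not say whether counting used strand, and the levels of these members are therefore uncertain. NDUFS4, NDUFA12, NDUFV3, NDUFAF1, NDUFAF2, NDUFAF4 and NDUFAF5 had no such overlap. All other members with a level and change given for both drugs, among them NDUFV1, NDUFV2, NDUFA3 and NDUFAF3, had one. Without PBS replicate 1, 30 members were lower and 2 higher with metformin, and 26 were higher and 6 lower with phenformin, at a subunit median of 0.34.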

How the data were processed

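RNA-seq of C4-2 cells (Illumina HiSeq, TruSeq mRNA kit) was analysed from the table of the series. The authors used CLC Genomics Workbench, and the submitters' processing notes name GRCh37.p13. The deposited values are RPKM per gene, with no scaling between libraries stated. The annotation release and the strand setting were not stated. Whole reads were recovered from the RPKM steps for 100% of the 25529 features above 0 (tolerance 0.01 read). These reads were used for limma-voom, the read numbers given, the agreement of replicates and the simulated data, and not for the main fits. Column names gave the groups and replicates.

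R 4.3.3 with limma 3.58.1 (lmFit, eBayes with trend) was used for the fits, on log2(RPKM + 0.1). Tables were handled in Python 3.11.15 (pandas 2.3.3, numpy 2.4.6, scipy 1.17.1) and drawn with matplotlib 3.10.9. Metformin was fitted with PBS alone (6 libraries, a level of 1 RPKM or more required in 3 or more), and phenformin in a fit of all 8 libraries (required in 2 or more), since 2 libraries give little spread of their own. The Benjamini-Hochberg limit was 0.05. No replicate pair agreed within sampling noise (chi-square per degree of freedom 1.94 to 4.14). The fit was tested on simulated data in which few genes changed, in both directions. That test does not bear on the scaling between libraries.

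Alternatives tried were a pseudocount of 0.01 or 1, no filter, a mean of at least 5 RPKM, median-centring, the TPM scale (each library divided by its summed RPKM), eBayes without trend, limma-voom with trimmed mean of M-values factors, all 8 libraries for metformin, the replicate number as a block, and each library left out in turn. The members, roles and gene lists were chosen with earlier results of these data known. Values in every library are given for all assembly factors, the nuclear core subunits and, in each comparison, the 4 members with the lowest and the 4 with the highest log2 change, except for 1 member that is not reported here by gene and stays in the counts and medians. Other members named for a single value, such as those at the end of a range or with a changed call, and the levels shown first in PBS, were chosen after their values were seen. Promoters are from RefSeq, and overlaps are from GENCODE 29 on GRCh38, used for names only.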

Additional observations from a re-analysis of the deposited data

How the results depend on the processing

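Results kept their side of the limit under most settings, and scaling moved them most. With metformin the number higher was 9 after median-centring, 11 on the TPM scale and 12 with limma-voom, and the number lower was 20 on the TPM scale and 19 with limma-voom. In the same order of the 3 scalings the subunit median was -0.17, -0.096 and -0.084 and the assembly factor median was 0.060, 0.14 and 0.15. NDUFAF2 turned to 0.086, 0.16 and 0.19 and NDUFAF3 to 0.060, 0.14 and 0.15. The median of all genes was then -0.12, -0.04 and -0.03. With phenformin the 3 scalings gave subunit medians of 0.36, 0.53 and 0.42 and assembly factor medians of 0.36, 0.54 and 0.45, at medians of all genes of -0.06, 0.11 and 0.02. NDUFAF7 turned to 0.017 on the TPM scale. A mean of at least 5 RPKM removed NDUFA13 and NDUFAF5 to NDUFAF7 from both comparisons and NDUFC2 from that with phenformin, which left an assembly factor median of 0.45 with phenformin. The TPM scale divides each library by its summed RPKM, so the shift on that scale follows from these sums. They were 181916 to 192366 with metformin, 185416 to 191133 with phenformin and 222239 to 229099 with PBS. Why the sums differ was not tested, nor was the cause of the other shifts.

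With each library left out in turn the number higher with metformin was 1 to 2 and the number lower 30 to 31, with subunit medians from -0.39 to -0.32, NDUFA13 from -0.047 to 0.56 and NDUFS3 from -0.039 to 0.095. With phenformin 22 to 26 were higher and 6 to 8 lower, with subunit medians from 0.25 to 0.34, NDUFS7 from -0.16 to 0.16 and NDUFV1 from -0.047 to 0.047. Samples with the same replicate number did not deviate together (correlations of -0.0751 to 0.00641). With 2 or 3 libraries in a group, these correlations cannot exclude that libraries were handled in pairs. With the replicate number as a block 31 members were lower and 2 higher with metformin, and 23 were higher and 6 lower with phenformin. The block lost the calls of NDUFA3 and NDUFS8 and turned NDUFS7 to -0.0051 and NDUFV1 to -0.014. NDUFA6, lower with metformin, lost its call without any metformin library, PBS replicate 1 or PBS replicate 3, and with eBayes without trend, and it turned direction under all 3 scalings, where it was called higher on the TPM scale (0.14) and with limma-voom (0.15). In a fit with 1 phenformin library left, that library is assumed to vary like the other groups. Low read numbers limit NDUFAF7 and NDUFA13 most.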

Other observations

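Of 8 regulators of respiratory genes, 4 rose and 2 fell with metformin as deposited (median log2 change 0.60), and 5 rose and 2 fell with phenformin (median 0.30). Over all genes tested 28.2% rose and 54.8% fell with metformin, and 31.2% rose and 45.4% fell with phenformin. Without PPARGC1A, which passed the filter on low values in both comparisons only through the metformin libraries, 3 of 7 rose and 2 fell with metformin (median -0.03), and 4 rose and 2 fell with phenformin (median 0.20). The coactivators among them moved in opposite directions at the mRNA level. PPARGC1A, which drives mitochondrial gene programmes with NRF1 and ESRRA, was at 1.41, 1.55 and 1.61 RPKM with metformin, 0.623 and 0.710 RPKM with phenformin and 0.0574, 0.0481 and 0.0624 RPKM with PBS. Its log2 change was 3.38 with metformin and 2.30 with phenformin, values set largely by the pseudocount (4.54 and 3.36 with a pseudocount of 0.01, 1.26 and 0.66 with a pseudocount of 1), since its PBS libraries held as few as 7 reads. PPARGC1B, a related coactivator, was at 0.449, 0.410 and 0.526 RPKM with metformin, 1.48 and 1.25 RPKM with phenformin and 2.35, 2.61 and 2.19 RPKM with PBS. Its log2 changes were -2.15 with metformin and -0.77 with phenformin. In the metformin comparison PPARGC1B passed the filter on low values only through the PBS libraries, where it is high. That fall is therefore no independent support, although PPARGC1B stays in the counts above. ESRRA, a nuclear receptor that acts with both, was lower with metformin (-0.60) and higher with phenformin (0.20). PPRC1, the third of the family, was at 12.1 to 13.9 RPKM with metformin, 14.3 and 14.4 RPKM with phenformin and 12.9 to 13.6 RPKM with PBS, and did not pass the test in either comparison.

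Rows outside the symbol rule were few among the expressed genes. Of 46 such rows beginning with NDUF, 38 were pseudogenes listed at 0 in every library. NDUFA4L2, a paralog of NDUFA4, was lower with both drugs (-1.23 with metformin, -1.09 with phenformin). The split rows of NDUFA7 moved in opposite directions, at -1.15 and 1.04 with metformin and -0.45 and 1.95 with phenformin, and the second of them was at 5.43 RPKM in PBS replicate 1, against 15.4 and 15.3 RPKM in PBS replicates 2 and 3.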
